A study of Caenorhabditis elegans with 2 samples.

Results

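The cytosolic ribosomal protein genes of Caenorhabditis elegans were examined for binding by NFYA-1. They were taken as the nuclear protein-coding genes of the Ensembl WBcel235 annotation named rpl-, rps- or rla-. There were 81 such genes of 19973 nuclear protein-coding genes, 50 for the large subunit (47 rpl- and 3 rla-) and 31 for the small subunit (rps-). The data are chromatin immunoprecipitation sequencing (ChIP-seq) of whole hermaphrodites at the third larval (L3) stage, strain OP404, in which the unc-119(tm4063) III mutation accompanies the integrated transgene wgIs404. The transgene expresses NFYA-1 with a GFP-FLAG tag at its C terminus, and per the labels the tagged protein was precipitated from sonicated chromatin with an antibody to GFP. The labels give 1 group of 2 biological replicates, and age is given as unknown. They do not say which cells express the transgene or how many animals were pooled. Every animal carried the transgene and no untagged library was analysed here, so there was no comparison of groups and no p-value across samples.

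NF-Y is a trimeric transcription factor whose A subunit, here NFYA-1, makes the contact with the CCAAT box. Ribosomal proteins assemble with ribosomal RNA into the 2 subunits of the ribosome, and their genes are known to be regulated together. In C. elegans many messenger RNAs are trans-spliced, meaning that the first stretch of the transcript is removed and replaced by a short spliced leader. The annotated start of such a gene is then often the base after the splice acceptor and not the base at which transcription began. Clusters of genes on 1 strand can also be transcribed together as an operon.

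A gene was called bound when a summit of the authors' list of 6932 peaks that passed the irreproducible discovery rate (IDR) threshold fell in the window from 500 bp upstream of its annotated start to 200 bp downstream. By this rule 67 of the 81 ribosomal protein genes were bound (82.7%), against 3122 of all 19973 protein-coding genes (15.6%). A high bound share was not particular to them. It was 75.8% for proteasome genes (25 of 33) and 75% for translation factor genes (30 of 40). For mitochondrial ribosomal protein genes it was 50% (35 of 70). The strength of a peak is the authors' signal value, given here as a rank in which 1 is the strongest. RefSeq product names put a ribosomal name in doubt for rpl-24.2, a putative ribosome biogenesis protein, and rpl-42, a NAM-associated domain protein. The product name of rps-30, ubiquitin-like domain-containing protein, holds no ribosomal name either. These genes were kept because the naming rule chose them.

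The bound ribosomal protein genes shared short strings of letters under their summits. Within 50 bp of the summit, both strands read, the 6-mer with the largest excess over other bound genes was GAGACC. The next in order was ACCGTA, at 42.2% of the ribosomal protein summits. Then came CGAGAC, at 43.8% of them, GCGAGA, at 42.2%, and AGACCC, at 35.9%. The last 3 overlap GAGACC and are treated with it as 1 element, called element A here, whose core is GAGACC. On the other strand this core reads GGTCTC. It was at 30 of the 64 distinct summits of ribosomal protein genes (46.9%) and at 218 of the 2463 distinct summits of other bound genes (8.85%). It was at 6.72% of all IDR summits. In windows of the same length 300 bp away from the ribosomal protein summits it was at 0% on the lower-coordinate side and 1.56% on the higher. The string was chosen for this difference, so the shares are a description. The stretches below show element A at 15 genes, 24 bases each from the RefSeq genome on the ce11 (WBcel235) build and on the strand that reads GGTCTC, with those letters in capitals. They are shown because the letters beyond the core recur at part of the genes. GGTCTC is followed by gc at 23 of the 32 bound genes that have it, and among those printed rpl-36, rpl-3, rpl-38, rpl-23 and rps-3 lack the gc.
rpl-21 (chrIII:8130556-8130579, minus strand): gacggtttGGTCTCgcagcgatct
rpl-29 (chrIV:13881943-13881966, plus strand): ccgtagcgGGTCTCgccacgactg
rpl-6 (chrIII:7208092-7208115, plus strand): cagacgcgGGTCTCgccgcgacga
rpl-36 (chrIII:7179851-7179874, plus strand): cagccaatGGTCTCaccacgattt
rps-4 (chrIV:7084910-7084933, minus strand): agctgccaGGTCTCgcagcgaaat
rps-21 (chrIII:7189907-7189930, minus strand): cagccaatGGTCTCgccacgacca
rps-11 (chrIV:11602306-11602329, plus strand): agcgcttgGGTCTCgcagcgcaca
rpl-26 (chrII:8602511-8602534, plus strand): ctgcggtgGGTCTCgcagcgatct
rps-25 (chrIV:5947932-5947955, minus strand): cacaactgGGTCTCgcagcgccgc
rps-8 (chrIV:7314127-7314150, minus strand): gagtgaagGGTCTCgccgcgatct
rla-2 (chrIV:13370525-13370548, minus strand): gacgagtgGGTCTCgccacgcgcg
rpl-3 (chrIII:3867607-3867630, plus strand): agtgtgtgGGTCTCccaacgcctt
rpl-38 (chrV:15511783-15511806, plus strand): cattgctgGGTCTCggcacgctca
rpl-23 (chrIII:5706430-5706453, minus strand): cccctatgGGTCTCacacagaaga
rps-3 (chrIII:6206422-6206445, plus strand): catttttcGGTCTCatggtcttgc

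Element A was at 32 of the 67 bound ribosomal protein genes when summits shared by neighbouring genes counted for both. The 6 letters were chosen from windows of 50 bp to either side of the summit, which bounds their distance from it, so the positions are a description. Their centre lay within 20 bp of the summit at 24 of the 32 genes, and the median displacement was -2 bp. At 26 of the 32 genes GGTCTC stood on the gene's own strand, and at 6 it stood on the other. The longer string GCGAGACC was at 23 of the bound ribosomal protein genes, and its median displacement from the summit was -0.5 bp. Across protein-coding genes the letters were common without binding. GAGACC lay somewhere in the window from 500 bp upstream to 200 bp downstream at 46.9% of the 81 ribosomal protein genes. It lay there at 16.8% of all other protein-coding genes. Of the other genes with GAGACC, 20.6% were bound, against 15.4% of all other protein-coding genes. Of the 531 other genes with GCGAGACC in that window, 34.1% were bound. Of the 14 unbound ribosomal protein genes, rps-2, rps-16, rps-18 and rpl-37 had GAGACC.

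A further element, B, had the 6-mer ACCGTA as its core. It was at 27 of the 64 ribosomal protein summits (42.2%), at 7.8% of other bound summits, at 4.92% of all IDR summits and at 1.56% of the flanking windows on either side. At many genes it followed element C, the string ACGAGTG, which was chosen after the 6-mers had been seen. Element C was at 14 of the 64 ribosomal protein summits (21.9%), at 1.62% of other bound summits and at 1.64% of all IDR summits. At 12 bound genes both were present, and at all 12 of these exactly 2 letters separated element C from element B on the same strand. Among the 12, rps-10 and rpl-24.1 share a summit, so the same site counts for both. The stretches of 30 bases below are on ce11 and on the strand that reads ACCGTA, with elements B and C in capitals. They include the strongest 3 genes, rpl-3, rpl-20 and rpl-15, which had element B without element C, and 7 genes with the spaced pair.
rpl-3 (chrIII:3867563-3867592, minus strand): gcgtcgcaaaacacgcttttACCGTAgctg
rpl-20 (chrIV:4750056-4750085, plus strand): gttttgttgcgtgttctattACCGTAtcct
rpl-15 (chrIV:654921-654950, plus strand): acacgctccacaatgcaaacACCGTAgtcc
rpl-11.2 (chrX:2242956-2242985, minus strand): cacagccagaaACGAGTGttACCGTAgtca
rpl-22 (chrII:5055374-5055403, plus strand): gcacagctgaaACGAGTGtgACCGTAgtta
rps-23 (chrIV:12391287-12391316, plus strand): gaacagctgaaACGAGTGttACCGTAcctc
rpl-21 (chrIII:8130514-8130543, minus strand): acacacttgaaACGAGTGttACCGTActgt
rpl-29 (chrIV:13881967-13881996, plus strand): cacacagctgaACGAGTGtgACCGTAtccg
rpl-6 (chrIII:7208064-7208093, plus strand): acacacgtaaaACGAGTGtcACCGTAgtca
rpl-34 (chrIV:12268555-12268584, plus strand): acacatggtaaACGAGTGttACCGTAgtct

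Element B was counted more often at the stronger ribosomal protein peaks and element A at the weaker ones. Of the 34 bound genes at or above the median rank, 19 had element B, and of the 33 below it, 9 did. For element A the counts were 12 of the 34 stronger genes and 20 of the 33 weaker ones. Among the 10 strongest distinct summits, 8 had element B and 2 had element A. The median IDR rank was 171.5 for the 28 genes with element B and 540 for those without it, and 539 for the 32 genes with element A and 221 for those without it. Both elements were present at 13 genes, rpl-3, rpl-14 and rpl-21 among them. These ranks come from 1 list made from both libraries, and no test across genes was made.

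Of the elements A to D, element D, the 9-mer GAATACTCA, had the smallest share at other bound genes. It was at 9 of the 64 ribosomal protein summits (14.1%), at 1 of the 2463 other bound summits (0.0406%) and at 12 of all 6932 IDR summits. In the start windows of all other protein-coding genes it was found at 112 genes (0.563%), 17% of which were bound. That is near the 15.4% bound among all other protein-coding genes. The 10 genes with it were rps-20, rpl-6, rps-22, rps-0, rpl-13, rps-30, rpl-39, rpl-32, rps-3 and rpl-7A, 5 for each subunit. It was named after the summits had been read. The stretches of 27 bases below, on ce11 and on the strand that reads GAATACTCA, are shown because the match runs past the capitals, with a leading cgtt in 4 of these 5 and a following g in these 5. The other 5 genes with it are not printed.
rpl-6 (chrIII:7208116-7208142, plus strand): ggcattGAATACTCAggcaacaagccc
rps-22 (chrIII:1950421-1950447, minus strand): aacgttGAATACTCAgccaagcagcca
rpl-32 (chrII:9057428-9057454, minus strand): aacgttGAATACTCAgccaacgacctt
rps-3 (chrIII:6206469-6206495, minus strand): agcgttGAATACTCAgtcaacggccag
rpl-7A (chrIV:4390619-4390645, minus strand): aacgttGAATACTCAgtcaacgactgt

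Taken as a set, at least 1 of the elements A to D was at 49 of the 64 ribosomal protein summits (76.6%) and at 16.1% of other bound summits. The share was 40% at bound proteasome genes, 33.3% at bound translation factor genes and 23.5% at bound mitochondrial ribosomal protein genes. In the windows 300 bp from the ribosomal protein summits it was 1.56% on the lower-coordinate side and 3.12% on the higher. The 15 bound genes with none of them included rpl-35, rps-19, rps-28 and rpl-12, which had strong peaks, and rpl-11.1, which had the weakest. The G and C content was 50.6% on average at ribosomal protein summits, 46.4% at other bound summits, and 38% and 36.6% in the flanks of the ribosomal protein summits.

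**Figure D1:**
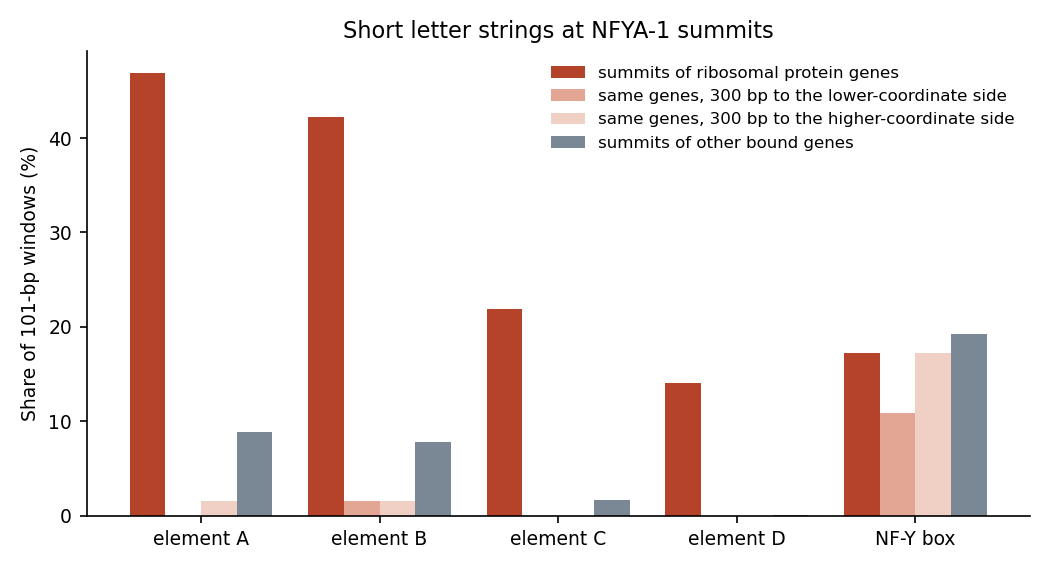
Share of windows reaching 50 bp to either side, in percent, that held each string on either strand. Bars give the 64 summits of ribosomal protein genes, the windows 300 bp to either side of them, and the 2463 summits of other bound genes, and NF-Y box stands for CCAAT. Elements A to D were each at 14.1% to 46.9% of the ribosomal protein summits and at 8.85% or less of the other summits, whereas the NF-Y box was at 17.2% and 19.2%.

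**Figure D2:**
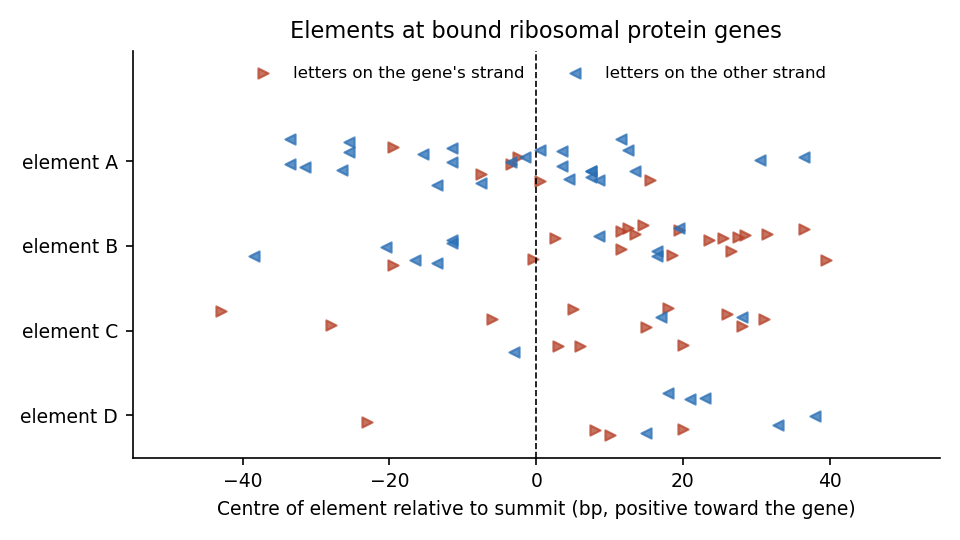
Each triangle is 1 occurrence of an element at a bound ribosomal protein gene, placed by the distance in bp of its centre from the summit, positive toward the gene. Triangles pointing right have the letters of the text (GAGACC for element A) on the gene's strand and those pointing left have them on the other strand, and the small vertical scatter has no meaning. Element A lies around 0 and mostly points left, while element B points mostly right and has a median of 14 bp.

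CCAAT itself was about as frequent at the ribosomal protein summits as at other bound summits. It was at 11 of the 64 summits (17.2%), at 10.9% and 17.2% of the windows on the lower- and higher-coordinate sides, and at 19.2% of other bound summits. The windows 300 bp to the lower and higher side of other bound summits had it in 18.9% and 18.3%, close to the share at those summits. All IDR summits together had it in 27.6%. Counted by gene, 12 of 67 had it, and 11 of those 12 also had one of the elements A to D. The longer NF-Y motif RRCCAATSR (R for a purine and S for either of the strongly pairing bases) was at 3 of the 64 summits (4.69%), at 3.05% of other bound summits and at 771 of all 6932 IDR summits. The genes were rpl-23, rps-21 and the divergent pair rpl-36 and rps-14. At rps-21 and rpl-36 the CCAAT lay directly against element A, as the printed stretches of element A show.

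Among other strings known from the whole peak list, GAGACGCAG and GAGAGA had lower shares at ribosomal protein summits than at other bound summits, and ACGCAG did not. The 9-mer GAGACGCAG was at 2 of the 64 summits (3.12%), at rps-5 and rpl-21, and at 10.4% of other bound summits and 9.09% of all IDR summits. GAGAGA was at 10.9% of ribosomal protein summits, 25.4% of other bound summits and 28.4% of all IDR summits. For CGTCTC the shares were 15.6%, 19.3% and 17.8%, and for ACGCAG 20.3%, 17.7% and 15%. GCGCGC was at 9.38% of ribosomal protein summits, 9.22% of other bound summits and 5.84% of all IDR summits. TATAAA was at 0 of the 64 summits, at 4.63% of other bound summits and 4.08% of all IDR summits, and at 10.9% and 7.81% of the windows beside the ribosomal protein summits. These strings overlap in part, CGTCTC and ACGCAG each sharing letters with GAGACGCAG.

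Peaks at ribosomal protein genes were among the stronger peaks of the list. The bound genes had a median IDR rank of 319, with quartiles at 136.5 and 704, and other bound genes had a median of 2677. In all, 58 of the 67 were among the 1000 strongest peaks (86.6%), against 18.1% of other bound genes. Those in the first 100 made up 17.9% of bound ribosomal protein genes and 2.06% of other bound genes. The signal of the strongest was 16.1 times that of the weakest.

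The strongest were genes of both subunits. First came rpl-3, coding for uL3, which reaches toward the peptidyl transferase centre, with rank 20 in the IDR list (signal 1809.2), 18 in replicate 1 and 25 in replicate 2. Next, rpl-20 (eL20) had rank 26, with 26 and 28 in the replicates, and rpl-15 (eL15) had rank 30, with 28 and 41. The first small subunit gene was rps-20 (uS10) at rank 34, with 29 and 45 in the replicates. On chromosome X, rpl-11.2, for uL5, which binds the 5S ribosomal RNA, had rank 35, with 37 and 32. The gene rpl-35, for uL29 at the exit of the polypeptide tunnel, had rank 40, with 36 and 62. Of the small subunit, rps-1 (eS1) had rank 48, with 41 and 76, and rps-19 (eS19, known in humans from Diamond-Blackfan anaemia) had rank 50, with 40 and 74. The gene rpl-14 (eL14) had rank 69, with 66 and 70. At the last of the 10 strongest summits, rps-10 and rpl-24.1 (eL24) shared 1 peak of rank 83, with 75 and 111 in the replicates. In each replicate all of these stood at rank 111 or better. The IDR list keeps peaks that agree between the replicates, so this agreement is partly fixed by that choice.

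In 3 cases divergent pairs of ribosomal protein genes shared 1 summit. Besides rps-10 and rpl-24.1, whose summit lay at -359 and -251 bp from their starts, rpl-36 (eL36) and rps-14 (uS11) shared the summit of rank 299 at -393 and -270 bp. The pair rpl-39, for eL39 in the wall of the polypeptide tunnel, and rps-30 shared the summit of rank 603, at -248 and -251 bp. Each pair joins a large and a small subunit gene. Because of them the 67 bound genes had 64 distinct summits, and each bound gene had 1 IDR summit in its window. More than 1 summit was rare at other bound genes too, at 41 of 3055.

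Named paralogues differed widely. The gene rpl-11.2 had rank 35 (signal 1227.2), whereas rpl-11.1, the other uL5 gene, had the weakest bound peak at rank 3755 (signal 112.4), with 4535 in replicate 1 and 3330 in replicate 2. The pair rpl-24.1 and rpl-24.2 had ranks 83 and 534. For the genes of uL23, a protein at the tunnel exit, rpl-25.2 had rank 847 and rpl-25.1 was unbound, with a weak relaxed region of rank 13454 of 30000 in replicate 1, none in replicate 2 and one of rank 11867 in the pooled list. The neighbouring genes rpl-41.1 and rpl-41.2, which code for L41, lay 699 bp apart on 1 strand. The gene rpl-41.2 had a summit of rank 209 at -262 bp. The gene rpl-41.1 was unbound in the IDR list, with a relaxed region of rank 6121 at -376 bp in replicate 1, none in replicate 2 and one of rank 8689 in the pooled list.

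Both bound rla- genes had weaker peaks than most bound ribosomal protein genes. The genes rla-0 (uL10) and rla-2 (P2), whose products form the base and the arms of the stalk that recruits translation factors, had ranks 1815 and 2008. Their ranks were 1825 and 1973 in replicate 1, and 2085 and 2150 in replicate 2. Only rpl-11.1 ranked lower among the 67 bound genes. Their summits lay at -240 and -253 bp. The third rla- gene, rla-1 (P1), was unbound. These are not all the stalk genes, because C37A2.7, outside the naming rule, has the product name P2 and was bound at rank 627.

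Large and small subunit genes had similar bound shares. Of the large subunit genes 41 of 50 were bound (82%), and of the small subunit genes 26 of 31 (83.9%), a difference of -1.87 percentage points that turned positive under 2 alternative settings. The median IDR rank was 379 for the large subunit and 267 for the small. Summits lay at a median of -287 bp at large subunit genes (quartiles -360 and -247) and -272 bp at small subunit genes (quartiles -335 and -245.25). Element A was at 21 of the 41 bound large subunit genes and 11 of the 26 bound small subunit genes, and element B at 18 and 10. Other strings had less similar shares. ACGCAG was at 6 of the 41 large (14.6%) and 10 of the 26 small subunit genes (38.5%). CGCAGC, a 6-mer outside the leading 5 that was picked after its values were seen, was at 12 (29.3%) and 12 (46.2%). These 2 strings share the letters CGCAG, and CGCAGC overlaps element A where GGTCTC is followed by gcagc, so their shares are not independent. By chromosome, 75% to 88.9% of the ribosomal protein genes were bound on each autosome, and on X 1 of 2.

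Summits at ribosomal protein genes lay further upstream of the annotated start than at other bound genes. The median offset of the 67 genes was -278 bp, where negative means upstream, with quartiles at -357 and -245.5 and a range from -453 to -32. Other bound genes had a median of -170 bp, quartiles at -277 and -89 and a range from -500 to 197. The medians differ by -108 bp, by -64 bp with a window from 1000 bp upstream and by -34 bp with one from 200 bp upstream to 100 bp downstream. Between 200 and 400 bp upstream lay 55 of the 67 ribosomal protein summits (82.1%) and 33.7% of the others. None of the ribosomal protein summits lay downstream of the start, as against 7.43% of the others. Other gene sets had medians of -215.5 bp for 30 bound translation factor genes, -212 bp for 25 bound proteasome genes and -149 bp for 35 bound mitochondrial ribosomal protein genes.

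**Figure D3:**
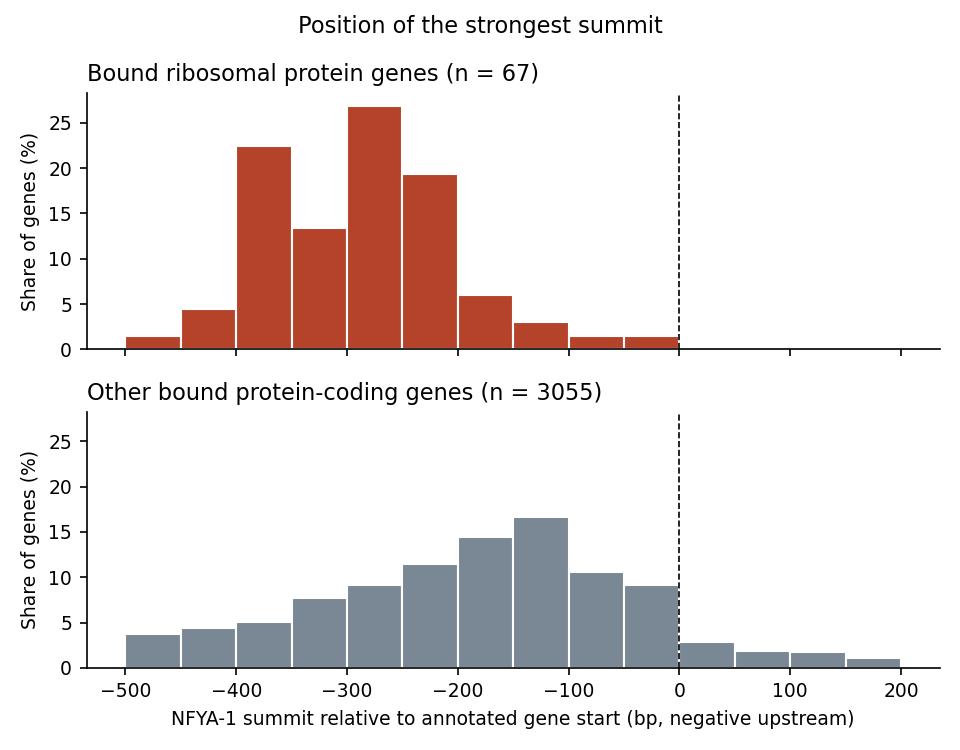
Share of genes, in percent, by the distance in bp of the strongest IDR summit from the annotated start, in bins of 50 bp, with the dashed line at the start. Bound ribosomal protein genes (upper panel) have most of their summits between 200 and 400 bp upstream, and other bound genes (lower panel) peak between 150 and 100 bp upstream.

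The summits furthest upstream were those of rpl-35 (-453 bp), rpl-34 (-441 bp) and rps-28 (-431 bp). Nearest to the start were those of rpl-12, coding for uL11 at the base of the stalk (-32 bp), rpl-7A (-55 bp) and rps-22 (-116 bp). Just outside the window lay the summit nearest to rps-29, at -505 bp. With a window from 200 bp upstream to 100 bp downstream, 8 of the 81 ribosomal protein genes were bound (9.88%) and 8.61% of all protein-coding genes, so the high bound share rests on summits beyond 200 bp. With a window from 1000 bp upstream it was 73 of 81, against 19.4% of all protein-coding genes. Strong peaks of other genes also lay nearer to the start. The 167 other bound genes with peaks at or above the median rank of the ribosomal protein genes had a median offset of -188 bp.

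Most ribosomal protein summits were in sequence with no other gene annotated. Of the 67, 54 were intergenic, 11 lay in an annotated noncoding gene, 1 in an intron and 1 in a 5' UTR. At 26 of the 67 the summit was closer to the start of another protein-coding gene, in every case one on the opposite strand. That share was 38.8%, and it was 18.6% for other bound genes. The 41 ribosomal protein genes whose own start was the nearest had a median offset of -270 bp, and the other bound genes of that kind had -151 bp.

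Annotated starts of ribosomal protein genes carried splice acceptor letters more often than those of other genes. The acceptor consensus TTNCAG, read on the gene's strand and ending within 5 bp of the annotated start, was at 62 of the 81 ribosomal protein genes (76.5%), at 46.8% of other bound genes and at 30.7% of all other protein-coding genes. Directly before the first annotated base it stood at 61 ribosomal protein genes. The median distance from the annotated start to the first coding base was 8 bp at ribosomal protein genes and 17 bp at other bound genes. The 24 bases before 4 starts are printed below, on ce11 and on the gene's strand, with the acceptor letters in capitals, because offsets were measured from the base that follows these letters.
rpl-3 (chrIII:3867830-3867853, plus strand): tttcgtaaaattaatattTTTCAG
rpl-20 (chrIV:4749779-4749802, minus strand): ttgcatcatatttttgttTTTCAG
rpl-11.2 (chrX:2242619-2242642, minus strand): ttattgttatttacctctTTACAG
rla-2 (chrIV:13370286-13370309, minus strand): aaaattaaagttatggttTTGCAG

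Offsets differed with these letters. Bound ribosomal protein genes with TTNCAG had a median offset of -287 bp (55 genes) and those without it -267.5 bp (12 genes). For other bound genes the medians were -218.5 bp with the letters (1430 genes) and -122 bp without (1625 genes). The medians of ribosomal protein genes and other bound genes thus differed by less among genes with the letters, and by more among genes without them, than among all bound genes. No measurement of where transcription begins was used, and the part of trans-splicing in the offset was not tested.

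Among the 14 ribosomal protein genes without a summit in the window, 5 were the downstream member of a close pair on 1 strand. These were rps-16 (uS9), 109 bp after fib-1, rpl-16 (uL13), 105 bp after lias-1, rpl-25.1 (uL23), 97 bp after glit-1, rpl-27 (eL27), 119 bp after C53H9.2, and rla-1, 105 bp after Y37E3.8. No bound ribosomal protein gene had a gene of its own strand ending within 150 bp upstream. At all 5 the upstream gene was bound. The summit of Y37E3.8 had rank 351 at -280 bp, that of lias-1 rank 444 at -275 bp, that of glit-1 rank 244 at -188 bp, that of fib-1 rank 425 at -80 bp and that of C53H9.2 rank 1375 at -214 bp. Product names give Y37E3.8 as uL15, itself a ribosomal protein, and fib-1 as fibrillarin, which methylates ribosomal RNA. Such a position was held by 6.17% of ribosomal protein genes and by 2137 of the other genes (10.7%). Of those 2137 genes, 6.13% were bound and 31.3% had a bound upstream gene. The limit of 150 bp was set after the values were seen, and whether these pairs are operons was not tested.

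Another 5 genes had a summit that lay beyond the window and nearer to a neighbour on the opposite strand. The summit of rank 295 was at -505 bp from rps-29 (uS14) and at -62 bp from snt-2. That of rank 816 was at -542 bp from rps-18 (uS13) and 127 bp downstream of the start of sec-61.A. In each case the neighbour, and not the ribosomal protein gene, was the one called bound. For rpl-41.1 the summit of rank 1905 was at -569 bp, and at -263 bp from M04F3.5. For rps-27 (eS27) the summit of rank 1049 was at -587 bp, and at -161 bp from picd-1. In its window rps-27 had weak relaxed regions of rank 14289 in replicate 1 and 28472 in replicate 2. For rpl-43 (eL43) the summit of rank 180 was at -738 bp, and at -183 bp from Y48B6A.1.

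The last 4 were each different. For rpl-42 the nearest upstream summit was at -979 bp and weak (rank 5851). The annotated start of rpl-19 (eL19) lay 642 bp before its first coding base, and the summit of rank 359 stood 363 bp downstream of it. From the most downstream transcript start of rpl-19 that summit was at -249 bp, close to the median of the bound genes. The gene rpl-37 (eL37) overlapped pitp-1 on the opposite strand, and had relaxed regions of rank 19402 in replicate 1 and 18135 in replicate 2, and 13740 in the pooled list. The gene rps-2, for uS5 at the entry of the messenger RNA channel, had a region in both replicates, at rank 2025 and -253 bp in replicate 1 and at rank 1994 and -228 bp in replicate 2, but no region in the pooled relaxed list or the IDR list. Of the 5715 regions shared by the 6932 strongest of each replicate, 35 overlapped no pooled region in this way.

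**Figure D4:**
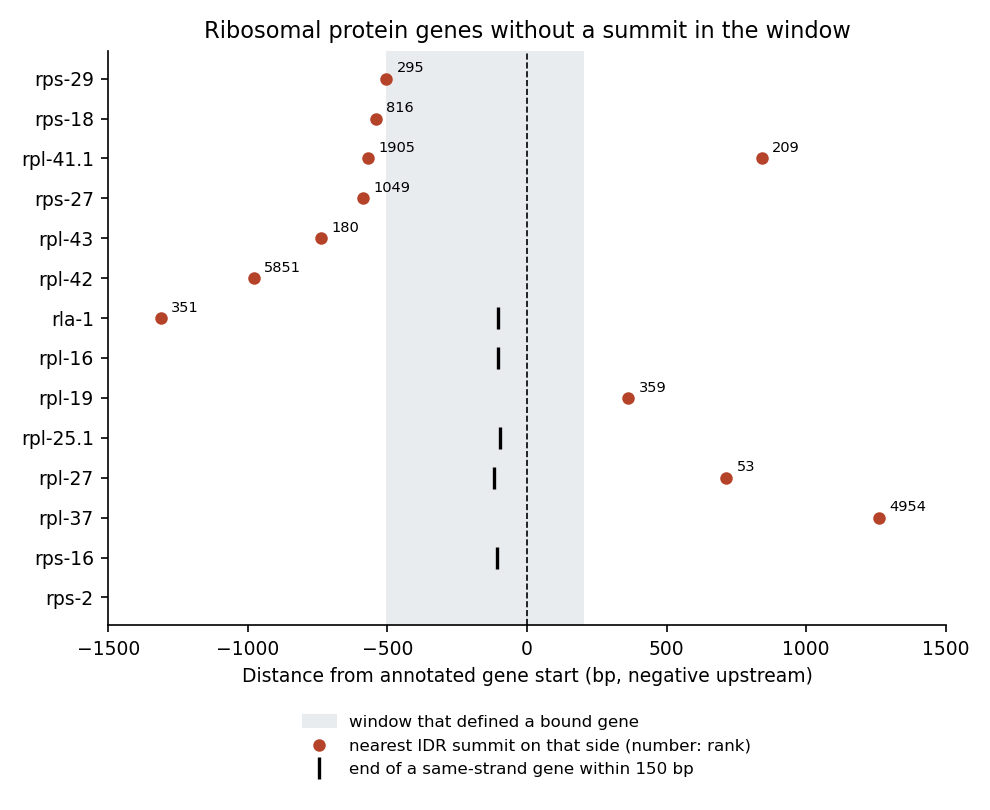
Distance in bp from the annotated start to the nearest IDR summit on each side, up to 1500 bp, for the 14 unbound ribosomal protein genes, with the IDR rank beside each point. The shaded band is the window that defined a bound gene, and a vertical bar marks the end of a same-strand gene within 150 bp. A bar stands at 5 genes, and 5 others have a summit between -738 and -505 bp.

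The IDR list keeps peaks that agree between these replicates, so the agreement at its summits is partly fixed by that choice and is given as a description. Spearman's rho between the replicate signals was 0.975 over the 64 distinct summits and 0.889 over 2401 other bound summits, across summits of 1 pair of libraries. The summit positions in the replicates were a median of 6 bp apart at ribosomal protein genes and 16 bp at other bound genes. They were within 20 bp of each other at 91% of the ribosomal protein genes and 61.3% of the other bound genes. Ribosomal protein genes ranked higher in replicate 1 at 57 of the 67, against 57.5% of other bound genes. The median rank was 302 in replicate 1 and 359 in replicate 2.

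The larger of a gene's ranks was a median of 1.33 times the smaller at ribosomal protein genes and 1.27 times at other bound genes. The largest ratios of ranks were at rpl-2 (uL2), with 1130 in replicate 1 and 2477 in replicate 2, at rpl-18 (eL18), with 624 and 1246, and at rps-8 (eS8), with 1221 and 2265. All 3 stood higher in replicate 1. The 6932 strongest regions of replicate 1 alone called 69 of the 81 ribosomal protein genes (15.5% of all protein-coding genes), and those of replicate 2 alone called 68 (15.9% of all protein-coding genes). By this measure 68 ribosomal protein genes were among the strongest regions of both replicates, rps-2 included, and rpl-41.1 was among those of replicate 1 only.

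**Figure D5:**
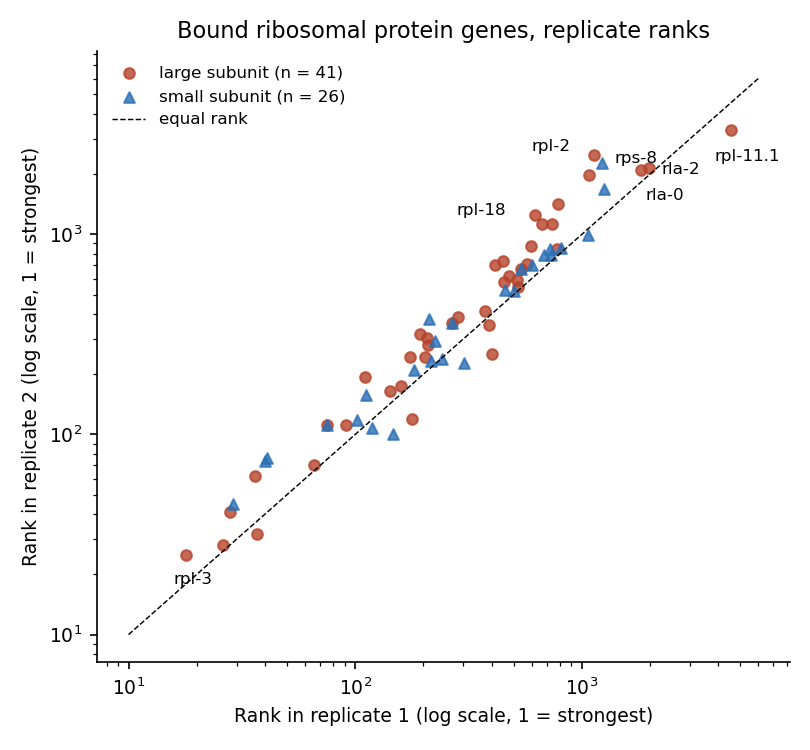
Rank of each of the 67 bound ribosomal protein genes in replicate 1 and replicate 2, on log scales on which 1 is the strongest region, with the dashed line at equal rank. Circles are large subunit genes and triangles small subunit genes. The points follow the line from rpl-3 (18 and 25) to rpl-11.1 (4535 and 3330), and 57 of them lie above it, where the rank is better in replicate 1.

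Ribosomal proteins that the naming rule leaves out were bound too. The genes ubl-1 and ubq-2 code for ubiquitin or a ubiquitin-like protein fused to a ribosomal protein. The summit of ubl-1 had rank 226 at -199 bp and that of ubq-2 rank 183 at -454 bp. The gene rack-1, for the small subunit protein RACK1, had rank 1074 at -223 bp. Product names point to 3 more, chosen after their values were seen. These were Y37E3.8 (uL15, rank 351 at -280 bp), C37A2.7 (P2, rank 627 at -392 bp) and W01D2.1 (L37, rank 1236 at -400 bp).

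Other genes linked to the ribosome, to its assembly or to its control were bound less uniformly than the ribosomal protein genes. Of 42 names in a list of such genes with ubl-1, ubq-2 and rack-1, 38 matched the annotation and 21 of these were bound (55.3%), with a median offset of -237 bp. The bound share over all protein-coding genes was 15.6%. Bound members included icd-1 and icd-2, the subunits of the nascent polypeptide-associated complex (ranks 424 and 182), nol-56 (rank 740) and nol-58 (rank 762). The Pescadillo homologue lpd-7 was called bound through the summit of rank 492 that it shares with rpl-9, at -278 bp from lpd-7 and -241 bp from rpl-9. The genes let-363 and daf-15, for the target of rapamycin kinase and its partner raptor, and rsks-1, for the S6 kinase, were unbound. So was ncl-1, a known repressor of nucleolar size. Relaxed regions in their windows stood at rank 2637 for daf-15 (replicate 2 only) and 15825 for rsks-1 (replicate 1 only). For ncl-1 the ranks were 9002 and 10018 in the replicates, and let-363 had no such region. Of the RNA polymerase I genes in the list, rpoa-1, rpoa-2, rpoa-49 and rpac-40 were unbound. The genes rpoa-12, at rank 3803, and rpac-19, at rank 2416, were bound, as was the initiation factor gene tif-1A at rank 1062. The products of rpac-19 and rpac-40 are shared with RNA polymerase III.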

How the data were processed

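The authors deposited narrowPeak lists on ce11 and ce10, of which the ce11 lists were used. Per the deposited file descriptions, a relaxed list of 30000 regions was made with a control experiment's file for each replicate and for both pooled, and an IDR list of 6932 peaks was derived from them. The deposited signal value of a region has no stated scale, so it was used only as a rank or ratio within a list. The deposited −log10 q value stands at its ceiling for every IDR peak and gave no ranking. For the aligner, caller, settings and read depth, each is not given in the sources used here, so the precision of single peaks is unknown.

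Genes came from Ensembl release 115 (WBcel235, the assembly of ce11), and product names and genome sequence from RefSeq. A gene took its strongest IDR summit from 500 bp upstream to 200 bp downstream of its annotated 5' end, and an offset is summit minus start in the direction of transcription. Motifs were sought on both strands within 50 bp of the summit and 300 bp to either side. Members and lists were chosen with earlier results of these data known. Named are the 10 strongest genes, all unbound genes, the rla- genes, paralogue pairs, the 3 most upstream and 3 most downstream summits, genes with RRCCAATSR, the 3 largest replicate rank ratios, genes sharing a summit, the 5 leading 6-mers, and ubl-1 and ubq-2. With 1 group nothing was tested, and all values are descriptions. Alternatives changed the window, anchor, peak list, motif window and letters and left out each replicate. Python 3.11.15, numpy 2.4.6 and pandas 2.3.3 were used, and the gene assignment and motif search were tested on simulated data.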

Additional observations from a re-analysis of the deposited data

How the results depend on the processing

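With the narrow window (200 bp upstream to 100 bp downstream), 8 ribosomal protein genes were bound, at a median offset of -148 bp, -34 bp from that of other bound genes, a median rank of 399 and a large minus small subunit difference of 0.323 points, the opposite sign to the main value. With 1000 bp upstream the offset was -288 bp, its difference -64 bp, the subunit difference -5.55 points and the rank 323. From the start codon these were -294 bp, -87 bp and 0.129 points, again of opposite sign. From the most downstream transcript start 59 ribosomal protein genes were bound, and the same values were -282 bp, -88 bp and -7.42 points, with rank 299. In the stronger part of the list the difference in offset was -99 bp, that of subunits -3.87 points and the rank 309. Where the own start had to be nearest, 41 of the 81 ribosomal protein genes and 2486 of the 19892 others were bound. The median offset of the ribosomal protein genes was then -270 bp, -119 bp from others. Leaving out each replicate gave 68 to 69 bound genes, offsets of -285 to -280 bp, differences of -114.5 to -108 bp and of -5.1 to -3.1 points, ranks of 369 to 373, CCAAT at 17.6% to 18.8% and GAGACGCAG at 2.94% to 4.35%. CCAAT was at 13.4% of genes within 25 bp and 35.8% within 100 bp, and RRCCAATSR at 5.97%. GAGACGCAG was at 0% and 5.97%, and GACGCA at 14.9%. GAGACC, added after seeing the data, was at 35.8% within 25 bp and 47.8% within 100 bp. Acceptor letters were at 86.4% of ribosomal protein genes with AG alone (59.8% of all other protein-coding genes) and at 71.6% from the most downstream start. The cause of these shifts was not tested. No paired analysis was possible because there was 1 group.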
